A study of Mus musculus with 6 samples.

Results

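Type I interferon-stimulated genes were followed in splenic CD4+ T cells of control and diabetic mice. The set held 35 genes, chosen by name as established interferon targets, and all 35 were among the 28945 genes of the deposited table. Earlier results of these data were known when the set was chosen. RNA was sequenced in 2 groups of 3 libraries, each of CD4+ T cells purified from spleen. CONT libraries are from C57BL/6J mice; DM libraries are from db/db mice, which lack the signalling form of the leptin receptor and grow obese and diabetic. The labels give no age, sex, strain background of the db/db mice or number of animals per library, so p-values rest on the scatter among these 6 libraries, part or all of which may be technical. In this design the db/db genotype, obesity, diabetes and any difference in strain background cannot be told apart. The study's title concerns eldecalcitol, a vitamin D analogue, but neither group is labelled as treated with it, and the comparison made was DM against CONT.

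Type I interferons signal through the receptor chains IFNAR1 and IFNAR2 and the kinases JAK1 and TYK2. These phosphorylate STAT proteins, among them STAT2, which joins IRF9 in ISGF3, the factor that binds interferon-stimulated response elements in the promoters of target genes. T cells keep many of these genes at a low tonic level without infection, and the same genes are used to read recent interferon exposure in blood and spleen.

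The response element was looked for in the promoters as the letters GAAA and again GAAA with any 2 bases between them (TTTC and TTTC where it lies on the other strand), in windows from 250 bases before to 50 bases after each start site (RefSeq, GRCm38.p6). No other motif was searched, and matches may overlap each other. Windows were at hand for 27 of the 35 genes, all but Dhx58, Zbp1, Usp18, Oas2, Parp14, Rtp4, Ifi27l2a and Mx1. Of these 27 genes, 17 (63.0%) had at least 1 match, against 4.09% of the 8718 tested genes of the table with a window and 3.44% of all 32851 windows. A match describes the letters in the window and does not show that a factor binds there. The 4 promoters below belong to the genes with a match whose comparison of DM with CONT had the smallest p, and show the element in 1 gene that rose and in 3 of negative fold change that did not pass the test. They are written 5′ to 3′ on the gene's own strand, with the matches in capitals.
Ifitm3: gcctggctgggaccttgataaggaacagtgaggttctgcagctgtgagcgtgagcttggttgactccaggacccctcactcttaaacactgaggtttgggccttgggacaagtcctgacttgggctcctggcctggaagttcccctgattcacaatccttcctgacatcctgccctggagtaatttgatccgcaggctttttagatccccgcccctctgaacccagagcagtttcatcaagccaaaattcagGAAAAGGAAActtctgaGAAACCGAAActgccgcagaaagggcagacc
Slfn5: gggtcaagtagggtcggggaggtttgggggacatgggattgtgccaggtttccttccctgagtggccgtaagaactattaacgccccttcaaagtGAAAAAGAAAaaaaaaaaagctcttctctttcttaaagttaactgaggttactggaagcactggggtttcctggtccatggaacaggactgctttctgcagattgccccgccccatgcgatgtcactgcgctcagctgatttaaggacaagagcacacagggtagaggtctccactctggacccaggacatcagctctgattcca
Slfn8: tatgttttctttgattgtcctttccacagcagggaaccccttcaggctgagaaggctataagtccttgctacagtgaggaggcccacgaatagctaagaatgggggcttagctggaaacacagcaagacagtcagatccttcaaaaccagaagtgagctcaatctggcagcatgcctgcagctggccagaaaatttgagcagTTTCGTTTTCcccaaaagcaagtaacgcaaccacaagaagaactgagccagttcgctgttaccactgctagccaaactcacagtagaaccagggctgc
Ifit1: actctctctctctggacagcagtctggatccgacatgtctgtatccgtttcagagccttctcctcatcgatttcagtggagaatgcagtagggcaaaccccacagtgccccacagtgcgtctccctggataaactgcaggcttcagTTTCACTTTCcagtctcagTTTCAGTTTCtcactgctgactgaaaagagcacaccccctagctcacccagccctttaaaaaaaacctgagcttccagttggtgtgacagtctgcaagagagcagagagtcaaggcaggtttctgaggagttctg
The Ifitm3 window lies at chr7:141010695-141010994 on the minus strand and carries 2 matches just after its start site. The Slfn5 window (chr11:82951852-82952151, plus strand) has 1 match 155 bases before the start. The Slfn8 window (chr11:83020761-83021060, minus strand) has 1 on the other strand, 48 bases before the start. The Ifit1 window (chr19:34640639-34640938, plus strand) has 2 on the other strand, 104 and 85 bases before the start. Ifitm3 was higher in DM and the other three were at lower values there, as given next. Over the 17 genes with a match the median log2 fold change was -0.20, with 12 below 0, and over the 10 genes without a match it was -0.27, with 7 below 0.

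Values are FPKM, fragments scaled to transcript length and to the sequenced total, and fold changes are differences of group means on log2(FPKM + 1), which understates the change of low genes. All 35 genes reached a group mean of 1 FPKM and entered the test, Ifi44 through CONT alone. Calls were made with limma where p, adjusted by Benjamini-Hochberg over the 13106 genes tested, was below 0.05. Of the 35 genes, 1 rose in DM (Ifitm3), 0 fell and 34 did not pass, where 1.52% of all genes tested were called, 1.27% as higher and 0.252% as lower. With an adjusted p below 0.1 limma gave 2 of the 35 (Xaf1 added), against 2.95% of all genes tested. With an unadjusted p below 0.05 it gave 3 higher and 6 lower genes of the 35, against 9.77% and 6.24% of all genes tested, or 16.0% in either direction. The DM libraries lay entirely above the CONT libraries in 2 of the 35 genes and entirely below in 9, against 13.8% and 13.2% of all genes tested. The median log2 fold change of the 35 genes was -0.23, with 26 below 0, against a median of -0.01 over all genes tested, of which 51.2% were below 0. The authors' deposited table flags 6 of the 35 genes, Ifitm3, Xaf1 and Isg20 as higher and Oas2, Slfn5 and Oas3 as lower, and 11.0% of the genes in the table. That share covers all 28945 genes, tested here or not. As read from the flagged rows, the flag follows the authors' unadjusted p. Their q-value was below 0.05 for 3 of the 35 genes, Ifitm3, Xaf1 and Oas2.

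**Figure D1:**
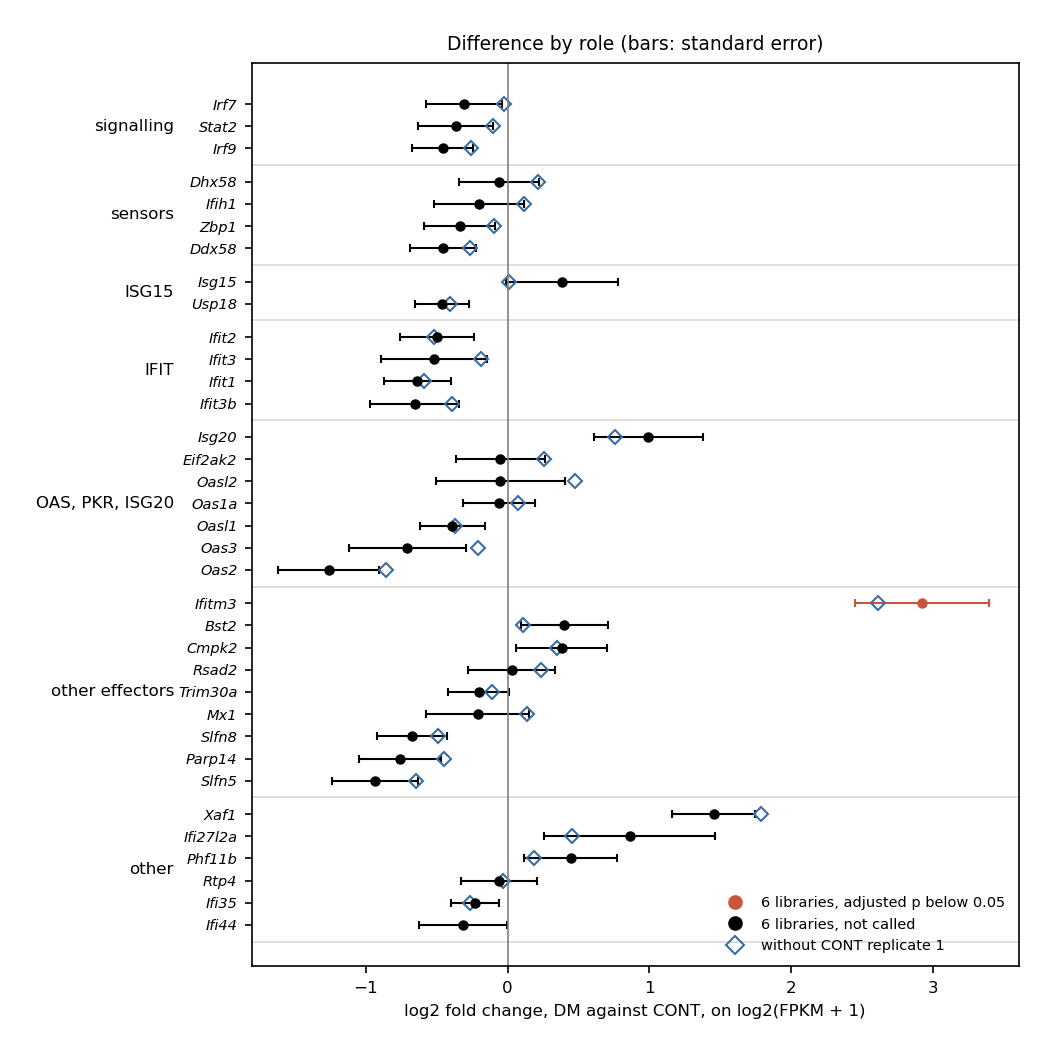
Log2 fold change of each of the 35 genes, DM against CONT, on log2(FPKM + 1), grouped by role, with standard errors. Ifitm3 is the gene called changed, at 2.92, and open diamonds show the values without CONT replicate 1, which lie nearer 0 or on the other side of it for most genes of negative fold change.

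The libraries differed in total FPKM, ribosomal protein share and cell markers, and the part of these in the members' values was not tested. FPKM summed to 248070 in CONT replicate 1 and to between 327172 and 410282 in the other 5 libraries, and relative depth read from the smallest steps in FPKM times length ran from 0.797 in CONT replicate 1 to 1.12. Read totals were not used here, so absolute depth is unknown and no counting interval is given. Ribosomal protein genes took 7.08% of FPKM in CONT replicate 1 and 13.3% to 18.4% in the others. CD4 T cell identity genes summed to between 3544 and 4414 FPKM in CONT and between 2492 and 3689 FPKM in DM, so genes of the labelled cell type were abundant in all libraries, and 0 of 17 such genes were called (limma; 9 had an unadjusted p below 0.05, all lower). Of 88 tested markers of other blood cells 11 were called, all higher in DM, with a median log2 fold change of 1.60. In bulk samples, fewer cells of a type and less RNA per cell cannot be told apart.

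Ifitm3 encodes a membrane protein that blocks the fusion of entering viruses, and it had the largest log2 fold change of the set. It lies on chromosome 7, 141009586 to 141010770 (GRCm38). Ifitm3 was at 3.38, 6.97 and 7.83 FPKM in CONT replicates 1, 2 and 3 and at 67.2, 24.3 and 76.4 FPKM in DM replicates 1, 2 and 3. All 3 DM libraries stood well above all 3 CONT libraries, with DM replicate 2 the lowest of its group. The mean rose from 6.06 ± 2.36 to 56.0 ± 27.8 FPKM (SD, n = 3). Its log2 fold change was 2.92 ± 0.47 (SE), at an adjusted p of 0.0371 (limma, Benjamini-Hochberg). The call was lost when any library but DM replicate 2 was left out, with median-of-ratios size factors and with no filter on low genes, although with 1 library left out the log2 fold change stayed between 2.61 and 3.43, and the adjusted p ran from 0.0253 to 0.151 over 18 alternatives (limma). The sum of macrophage and monocyte markers was 38.0, 72.7 and 117 FPKM in CONT replicates 1, 2 and 3 and 639, 342 and 1218 FPKM in DM replicates 1, 2 and 3. That sum had the same order of the 6 libraries as Ifitm3, but most of it in DM was Lyz2 and Ly6c2. In DM replicates 1, 2 and 3 Lyz2 was at 349, 170 and 845 FPKM and Ly6c2 at 180, 44.5 and 128 FPKM. Only Lyz2, Ly6c2, Ccr2 and Fcgr3 of that list were higher in DM replicate 1 than in DM replicate 2, as Ifitm3 was, and the other markers were lower. Of the 15 tested markers of that list 3 were called, all higher, and all 15 were higher at an unadjusted p below 0.05 (limma). In 13 of the 15 all DM libraries lay above all CONT libraries, against 13.8% of all genes tested. Neutrophil markers summed to between 31.2 and 118 FPKM in CONT and between 239 and 1386 FPKM in DM, with 0 of 12 called and 6 at an unadjusted p below 0.05 (limma). No marker of either list was at 0 throughout CONT, and the part of these cells in the Ifitm3 difference was not tested.

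Xaf1, which encodes a binding partner of the apoptosis inhibitor XIAP, was the second gene whose DM libraries all lay above CONT. Xaf1 (chromosome 11, 72301629 to 72313733) was at 9.18, 3.82 and 4.41 FPKM in the CONT libraries and 17.3, 16.6 and 15.9 FPKM in the DM libraries. The DM libraries were close together and the spread lay in CONT, where replicate 1 was the highest. The log2 fold change was 1.45 ± 0.29 (SE), which missed the threshold (adjusted p = 0.07, limma, Benjamini-Hochberg). Without CONT replicate 1 it was 1.78 and passed (adjusted p = 0.00528), the 1 member called in that fit, in which 1.36% of all genes tested were called, and over 18 alternatives the adjusted p ran from 0.00528 to 0.263 (limma). Xaf1 kept a positive fold change in all of these fits.

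**Figure D2:**
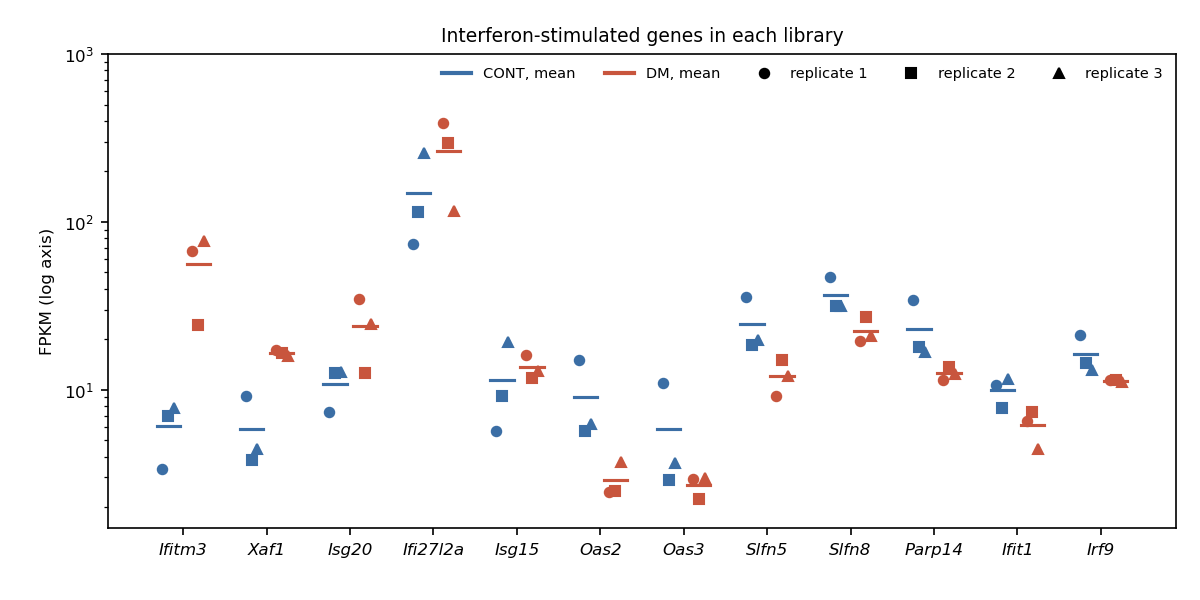
FPKM of 12 interferon-stimulated genes in each library (log axis), with symbols for replicates and lines for group means. The DM values of Ifitm3 and Xaf1 lie above CONT without overlap, and those of Oas2, Slfn5, Slfn8, Parp14, Ifit1 and Irf9 lie below it.

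The signalling genes Stat2, Irf9 and Irf7 gave no call. Irf9, the DNA-binding subunit of ISGF3, was at 21.1, 14.5 and 13.1 FPKM in the CONT libraries and 11.4, 11.5 and 11.1 FPKM in the DM libraries. The groups did not overlap, with DM nearly constant and CONT replicate 1 well above the rest (log2 fold change -0.46, SE 0.22; adjusted p = 0.33 by limma with Benjamini-Hochberg). Stat2, its partner, was at 14.9, 9.15 and 7.23 FPKM in the CONT libraries and 6.92, 7.14 and 8.62 FPKM in the DM libraries. Irf7, the factor that amplifies interferon production and is itself an interferon target, was at 22.4, 11.7 and 12.3 FPKM in the CONT libraries and 13.3, 10.9 and 11.3 FPKM in the DM libraries. Stat2 and Irf7 overlapped between groups, and outside CONT replicate 1 all values of each lay in a narrow band. Without that library the log2 fold changes of Stat2, Irf9 and Irf7 were -0.10, -0.26 and -0.02.

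Of the sensors, Ddx58 encodes RIG-I and Ifih1 encodes MDA5, receptors for viral RNA in the cytosol. Ddx58 was at 26.3, 17.2 and 17.5 FPKM in the CONT libraries and 12.1, 15.8 and 15.2 FPKM in the DM libraries, so all DM values lay below CONT (log2 fold change -0.46, SE 0.23; adjusted p = 0.342 by limma with Benjamini-Hochberg). Ifih1 ranged from 3.84 to 9.14 FPKM in CONT and from 3.77 to 6.21 FPKM in DM. Dhx58, which encodes their regulator LGP2, ranged from 3.20 to 6.83 and from 3.26 to 4.69 FPKM. Zbp1, a sensor of Z-form nucleic acids, ranged from 19.1 to 34.5 and from 17.8 to 20.2 FPKM. In all 4 sensors the highest of the 6 libraries was CONT replicate 1. Without it the log2 fold changes of Ifih1 and Dhx58 turned positive (0.12 and 0.21) and those of Ddx58 and Zbp1 were -0.26 and -0.09.

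Isg15, a ubiquitin-like protein that is joined to other proteins, and Usp18, the protease that removes it and damps the receptor, went different ways within CONT. Isg15 was at 5.64, 9.19 and 19.3 FPKM in the CONT libraries and 16.1, 11.8 and 13.0 FPKM in the DM libraries, so CONT held both the lowest and the highest library. Its log2 fold change of 0.39 ± 0.39 (SE) was no larger than its error (limma adjusted p = 0.561, Benjamini-Hochberg), and without CONT replicate 1 it was 0.01. Usp18 was at 11.7, 9.13 and 11.6 FPKM in the CONT libraries and 8.55, 6.40 and 7.82 FPKM in the DM libraries, without overlap (log2 fold change -0.46, SE 0.19; adjusted p = 0.306 by limma with Benjamini-Hochberg). Without CONT replicate 1 the value for Usp18 was -0.40, a small change from that of all 6 libraries.

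The IFIT proteins bind foreign RNA and block its translation, and the 4 members of the set lie on chromosome 19 between 34550694 and 34650009, with the relatives Ifit1bl1 and Ifit1bl2 among them. Ifit1 was at 10.7, 7.80 and 11.6 FPKM in the CONT libraries and 6.54, 7.39 and 4.45 FPKM in the DM libraries. The groups were apart by a small gap between CONT replicate 2 and DM replicate 2 (log2 fold change -0.64, SE 0.24; adjusted p = 0.279 by limma with Benjamini-Hochberg). Ifit3b was at 7.56, 3.06 and 5.12 FPKM in the CONT libraries and 3.84, 2.07 and 2.69 FPKM in the DM libraries, with overlap. Ifit3 ranged from 7.44 to 21.6 FPKM in CONT and from 6.78 to 11.7 FPKM in DM, and Ifit2 from 24.7 to 30.8 and from 15.7 to 27.3 FPKM. All 4 fold changes were negative, from -0.50 for Ifit2 to -0.65 for Ifit3b, and none passed the test. Without CONT replicate 1 they ran from -0.18 for Ifit3 to -0.59 for Ifit1, all still negative. Ifit1bl1, which lies between Ifit3 and Ifit3b and was named after its values were seen, was at 46.9, 56.0 and 85.5 FPKM in the CONT libraries and 29.1, 38.2 and 27.0 FPKM in the DM libraries, without overlap (log2 fold change -0.95, SE 0.29; adjusted p = 0.199 by limma with Benjamini-Hochberg). Ifit3 and Ifit3b are near-identical copies, and how reads that match both were assigned is not known here, so their separate levels are uncertain. The same holds for Oas1a, Slfn8, Trim30a, Phf11b and Ifi27l2a, which have close relatives beside them.

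The OAS enzymes make 2′-5′ linked oligoadenylates that switch on the RNA-degrading enzyme RNase L, and Oas1a, Oas2 and Oas3 lie on chromosome 5. Oas2 (120730333 to 120749853) was at 15.1, 5.67 and 6.25 FPKM in the CONT libraries and 2.44, 2.5 and 3.69 FPKM in the DM libraries. Every DM library was below every CONT library, and CONT replicate 1 was far above the rest. Its log2 fold change of -1.26 ± 0.36 (SE) was the most negative of the set and did not pass (limma adjusted p = 0.171, Benjamini-Hochberg), and it was -0.86 without CONT replicate 1 (adjusted p = 0.12). Oas3 (120753098 to 120777661) was at 11.0, 2.90 and 3.65 FPKM in the CONT libraries and 2.93, 2.22 and 2.97 FPKM in the DM libraries. Here the groups overlapped and CONT replicate 1 carried most of the difference, with a log2 fold change of -0.70 in all libraries and -0.21 without it. Oas1a (120896256 to 120907521), with Oas1b and Oas1g between it and Oas3, ranged from 8.0 to 13.1 FPKM in CONT and from 7.74 to 12.3 FPKM in DM, with a log2 fold change of -0.06 ± 0.25 (SE). The 3 genes had fold changes from -1.26 to -0.06, and the differences between them were not tested.

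Of the other enzymes in this class, Oasl1 and Oasl2 encode OAS-like proteins, of which Oasl1 restrains Irf7 translation in mice. Oasl1 ranged from 3.20 to 3.85 FPKM in CONT and from 1.72 to 3.51 FPKM in DM. Oasl2 was at 6.18 FPKM in CONT replicate 1 and between 1.28 and 3.14 FPKM elsewhere. Eif2ak2, which encodes the translation-blocking kinase PKR, ranged from 4.51 to 10.1 FPKM in CONT and from 4.70 to 7.97 FPKM in DM, with a log2 fold change of -0.05. Isg20, an exonuclease that degrades RNA, was at 7.39, 12.6 and 12.7 FPKM in the CONT libraries and 34.5, 12.6 and 24.5 FPKM in the DM libraries. DM replicates 1 and 3 were above CONT and DM replicate 2 was at the CONT level (log2 fold change 0.99, SE 0.38; adjusted p = 0.291 by limma with Benjamini-Hochberg). Isg20 is also expressed by plasma cells. Their markers summed to 48.0, 137 and 74.4 FPKM in CONT replicates 1, 2 and 3 and 339, 279 and 523 FPKM in DM replicates 1, 2 and 3. Most of the DM sum was Jchain, at 269, 226 and 374 FPKM. In DM replicate 2, where Isg20 was at the CONT level, the plasma cell sum was above that of every CONT library. The part of plasma cells in the Isg20 values was not tested.

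The Schlafen genes Slfn5 and Slfn8, which belong to a family tied to lymphocyte quiescence and viral restriction, lie on chromosome 11 and were at lower values in DM, without passing the test. Slfn5 (82951349 to 82964840) was at 35.8, 18.5 and 19.7 FPKM in the CONT libraries and 9.19, 15 and 12.1 FPKM in the DM libraries (log2 fold change -0.93, SE 0.30; adjusted p = 0.234 by limma with Benjamini-Hochberg). Slfn8 (83002158 to 83020810) was at 47.0, 31.5 and 31.6 FPKM in the CONT libraries and 19.4, 27.1 and 20.9 FPKM in the DM libraries (log2 fold change -0.67, SE 0.25; adjusted p = 0.268 by limma with Benjamini-Hochberg). In both genes the groups did not overlap, DM replicate 2 was the nearest to CONT, and CONT replicate 1 was the highest. Slfn9, which lies between them and was named after its values were seen, ranged from 2.70 to 4.95 FPKM in CONT and from 3.48 to 5.02 FPKM in DM, with a log2 fold change of 0.17 ± 0.25 (SE). Of 17 CD4 T cell identity genes 15 had a fold change below 0, with a median of -0.72 and none called. The DM libraries lay entirely below the CONT libraries in 11 of the 17 and entirely above in 0. The sum of the 17 genes in DM replicate 2, 3689 FPKM, was above those of CONT replicates 1 and 2. Trbc1, Trbc2 and Trac held much of it there, at 854, 833 and 572 FPKM. The mean of log2(FPKM + 1) over the 17 genes was 6.91 in DM replicate 2, below the CONT range of 7.05 to 7.21. The part of the identity genes in the Schlafen values was not tested.

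Parp14, an ADP-ribosyltransferase, was at 34.3, 18 and 16.8 FPKM in the CONT libraries and 11.4, 13.7 and 12.5 FPKM in the DM libraries, without overlap (log2 fold change -0.76, SE 0.29; adjusted p = 0.286 by limma with Benjamini-Hochberg). Without CONT replicate 1 the value was -0.45. Trim30a, a TRIM protein that damps innate signalling in mice, was among the most abundant members, at 52.0, 39.0 and 47.1 FPKM in the CONT libraries and 35.2, 42.5 and 41.4 FPKM in the DM libraries, with overlap. Bst2, which encodes tetherin and is also a marker of plasmacytoid dendritic cells, was at 14.7, 22.9 and 33.9 FPKM in the CONT libraries and 33.5, 27.4 and 29.7 FPKM in the DM libraries. All DM values of Bst2 fell inside the CONT range. The other plasmacytoid markers summed to between 10.5 and 16.9 FPKM in CONT and between 30.2 and 140 FPKM in DM, with Klk1 at 0 in all CONT libraries and 1 of 6 tested markers called. Most of the DM sum was Ly6d, at 2.70 to 3.67 FPKM in CONT and 24.2, 17.1 and 122 FPKM in DM replicates 1, 2 and 3. Ly6d was highest in DM replicate 3, where B cell markers were highest. It was also above CONT in DM replicates 1 and 2, where the B cell marker sums lay inside the CONT range. Siglech, Cox6a2 and Clec12a of the same list had log2 fold changes of 1.06, 0.91 and 2.11, and Ccr9 and Pacsin1 of -0.04 and -0.39. The part of these cells in the Bst2 values was not tested.

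Mx1, a dynamin-like GTPase gene that is defective in most laboratory mouse strains, ranged from 2.35 to 7.68 FPKM in CONT and from 2.57 to 4.28 FPKM in DM. Rsad2, which encodes viperin, and Cmpk2, its neighbour on chromosome 12, were low in both groups. Rsad2 ranged from 1.38 to 2.86 FPKM in CONT and from 1.12 to 3.02 FPKM in DM, and Cmpk2, a mitochondrial nucleotide kinase gene, from 4.60 to 5.36 and from 3.72 to 10.6 FPKM. None of the 3 genes had a fold change above its error by a wide margin, at -0.21 ± 0.36, 0.03 ± 0.31 and 0.38 ± 0.32 (SE) for Mx1, Rsad2 and Cmpk2.

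Among the remaining targets, Ifi27l2a was the most abundant member per length in the means of both groups. This small mitochondrial membrane protein gene was at 73.9, 115 and 258 FPKM in the CONT libraries and 388, 295 and 116 FPKM in the DM libraries, with wide overlap (log2 fold change 0.86, SE 0.60; adjusted p = 0.428 by limma with Benjamini-Hochberg). Phf11b, a PHD finger gene, was at 33.7, 46.2 and 74.9 FPKM in the CONT libraries and 57.8, 81.0 and 64.1 FPKM in the DM libraries, also with overlap. Ifi35, which regulates innate sensor signalling, was at 15.6, 17.0 and 16.8 FPKM in the CONT libraries and 14.3, 12.5 and 15 FPKM in the DM libraries. The groups of Ifi35 did not overlap, yet the difference was small (log2 fold change -0.23 ± 0.17 SE). Rtp4, a chaperone of G protein-coupled receptors, ranged from 7.73 to 10.8 FPKM in CONT and from 6.78 to 13.2 FPKM in DM. Ifi44 was the lowest member, from 0.564 to 1.97 FPKM in CONT and from 0.435 to 1.10 FPKM in DM.

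Within CONT the 35 genes did not move as a block, and the split followed transcript length. CONT replicate 1 was the highest of the 6 libraries for 21 of the 35 genes, against 40.1% of all genes tested. It was the highest of the 3 CONT libraries for 23 genes, against 49.0%, and the lowest of the 3 for 8, against 38.4%. All 7 members whose longest annotated transcript is below 1500 bases (Isg15, Isg20, Bst2, Ifitm3, Ifi27l2a, Phf11b and Ifi35) were lower in CONT replicate 1 than the mean of CONT replicates 2 and 3 on log2(FPKM + 1), with a median difference of -0.88. Of the 28 longer members, 26 were higher there, with a median difference of 0.78. Over all genes tested the same difference had a median of -0.49 below 1500 bases and of 0.22 above. Between 1500 and 3000 bases the median was 0.41 over 9 members, all above 0, and -0.05 over all 3578 genes of that length. Across the 35 members Spearman's rho between length and this difference was 0.65, and across 13096 genes with a known length it was 0.46. These are descriptions across genes of the same libraries, which share library preparation and depth and are not independent replicates.

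**Figure D3:**
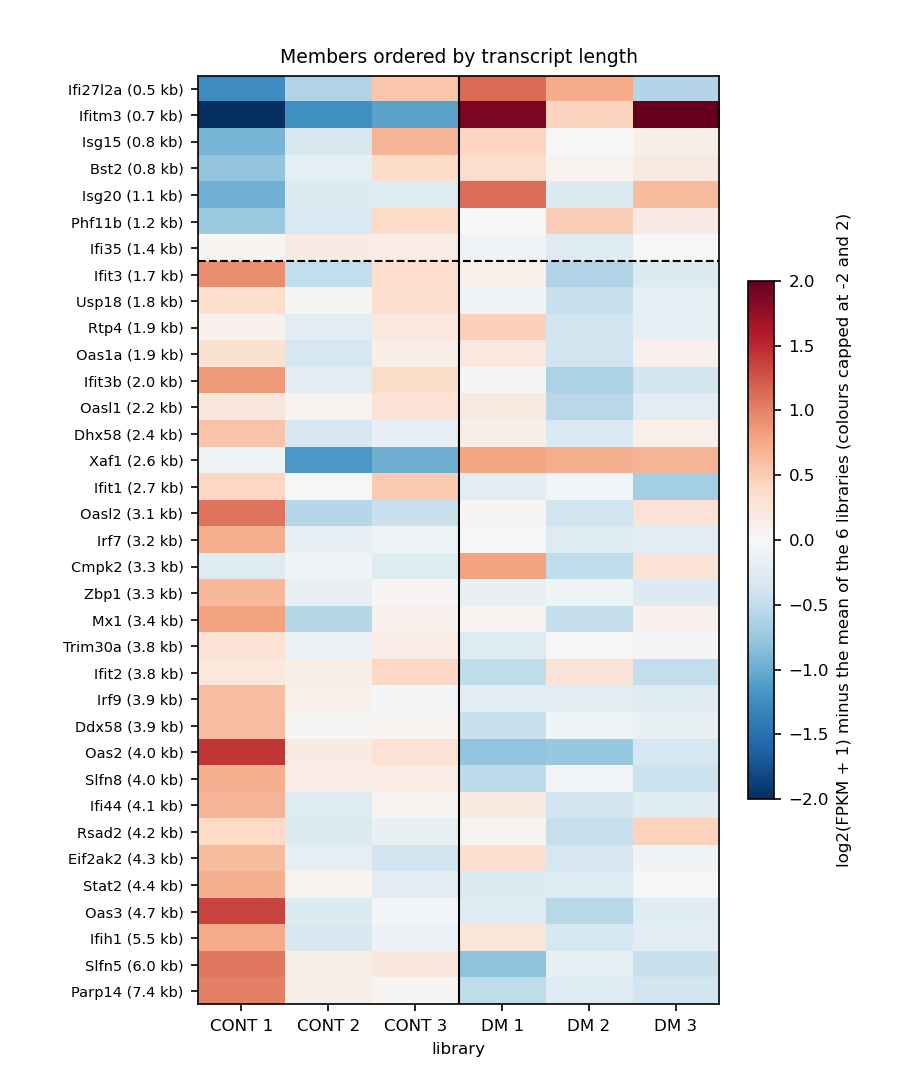
Level of each of the 35 genes in each library, as log2(FPKM + 1) minus the mean of the 6 libraries, with genes ordered by the length of the longest annotated transcript. Colours end at -2 and 2. Above the dashed line lie the 7 members under 1500 bases, which all but Ifi35 are low in CONT replicate 1, and below it most of the 28 longer members are high there.

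The difference between DM and CONT showed the same split. Of the 7 shorter members 1 was below 0, Ifi35, and the median log2 fold change was 0.45. Of the 28 longer members 25 were below 0, all but Xaf1, Cmpk2 and Rsad2, with a median of -0.35. Over all genes tested the median fold change was 0.30 below 1500 bases and -0.08 above, and Spearman's rho between length and fold change was -0.35 across 13096 genes and -0.55 across the 35 members. Without CONT replicate 1 the median of the set was -0.06 over the 34 genes still tested, with 19 below 0, where 48.3% of all genes tested were below 0, and 6 genes changed sign. With the trend on length removed from each library, an alternative chosen after seeing the data, the median was -0.20 with 24 of 35 below 0, and Ifitm3 was again the gene called (log2 fold change 2.60; limma adjusted p = 0.0437, Benjamini-Hochberg). With that trend removed, Oas2, Slfn5 and Parp14 were at -1.16, -0.68 and -0.43, and Isg20, Phf11b, Bst2 and Isg15 at 0.70, 0.17, 0.08 and 0.07. These genes moved nearer 0, but others moved away from it. Among those, Usp18, Ifi35, Ifit3 and Ifit3b went from -0.46, -0.23, -0.52 and -0.65 to -0.62, -0.47, -0.68 and -0.77. What part length had in each gene's difference was not tested.

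**Figure D4:**
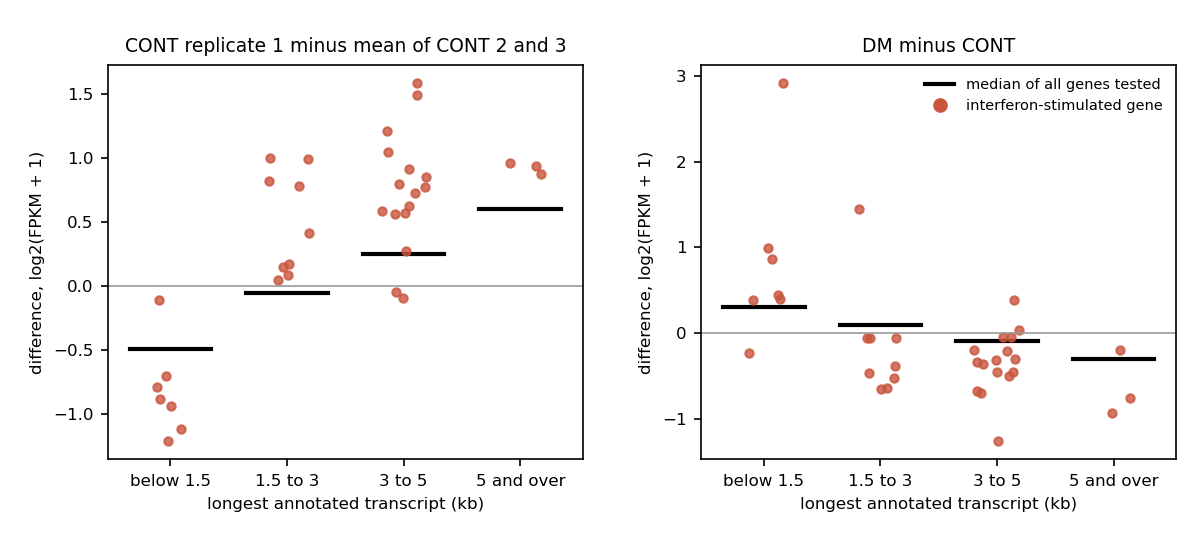
Differences on log2(FPKM + 1) by length of the longest annotated transcript, for CONT replicate 1 against the mean of CONT replicates 2 and 3 (left) and for DM against CONT (right). Points are the 35 genes and bars the medians of all genes tested, which go from -0.49 to 0.60 on the left and from 0.30 to -0.31 on the right with rising length.

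Taking the set as a whole, the mean of log2(FPKM + 1) over the 35 genes was 3.82, 3.31 and 3.57 in CONT replicates 1, 2 and 3 and 3.62, 3.33 and 3.49 in DM replicates 1, 2 and 3. The DM libraries all lay inside the CONT range. DM replicate 2 was the lowest of the 6 libraries for 13 of the 35 genes, against 12.7% of all genes tested.

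Upstream of these genes, none of the 24 tested receptor and signalling genes was called, with 7 above 0 and 17 below, a median log2 fold change of -0.18, and 2 higher and 1 lower at an unadjusted p below 0.05 (limma). The receptor chain genes Ifnar1 and Ifnar2 averaged 21.8 ± 8.91 and 17.2 ± 2.67 FPKM in CONT and 14.6 ± 3.16 and 17.4 ± 1.75 FPKM in DM (SD, n = 3). The smallest p belonged to Irf8 and Irf5, transcription factors of myeloid and B cells. Irf8 was at 2.59, 1.88 and 1.72 FPKM in the CONT libraries and 9.15, 4.99 and 15.3 FPKM in the DM libraries, without overlap (log2 fold change 1.71, SE 0.36; adjusted p = 0.0772 by limma with Benjamini-Hochberg). Irf5 averaged 1.78 ± 0.319 and 8.59 ± 6.08 FPKM (SD, n = 3), also without overlap. The kinase genes Ikbke and Jak1 followed, at 32.6 ± 8.13 and 119 ± 20.9 FPKM in CONT and 18.3 ± 4.39 and 80.9 ± 12.1 FPKM in DM (SD, n = 3). B cell markers summed to between 6.06 and 26.8 FPKM in CONT and to 17.0, 12.4 and 379 FPKM in DM replicates 1, 2 and 3, none of 11 called, and the part of B and myeloid cells in Irf8 and Irf5 was not tested.

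Of 21 interferon ligand genes listed, 4 were among the genes of the deposited table: Ifnab, Ifnk, Ifnz and Ifng. Ifnb1 and the numbered Ifna genes were not among them, so their levels are not known here. Only Ifng, the type II interferon, was abundant enough to test. Ifng was at 2.39, 4.18 and 5.85 FPKM in the CONT libraries and 4.39, 8.15 and 6.19 FPKM in the DM libraries, with overlap (log2 fold change 0.52, SE 0.32; adjusted p = 0.385 by limma with Benjamini-Hochberg). The type I genes present, Ifnab, Ifnk and Ifnz, were near 0 throughout. Ifnab was at 0.105, 0.0168 and 0.0928 FPKM in CONT and listed at 0 in DM, and Ifnz reached at most 0.251 FPKM in CONT and 0.0879 FPKM in DM.

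A list of 65 further interferon-stimulated genes, of which 62 were tested, gave 1 call, Ifi211, with a median log2 fold change of -0.12 and 35 genes below 0. Ifi211, a member of the Ifi200 family of DNA-binding proteins, averaged 3.03 ± 0.941 FPKM in CONT (SD, n = 3) and rose to 11.4 ± 2.63 FPKM in DM, a log2 fold change of 1.62 ± 0.25 (SE) with an adjusted p of 0.0322 by limma and Benjamini-Hochberg. The call was lost under several alternatives, given with the other limits. Its relatives Ifi205 and Ifi204 were at 0.777 ± 0.085 and 1.38 ± 0.467 FPKM in CONT and 2.61 ± 0.599 and 5.54 ± 1.97 FPKM in DM (SD, n = 3; limma adjusted p = 0.0704 and 0.0772, Benjamini-Hochberg). Ly6c2, a monocyte and memory T cell surface gene, was at 11.0, 22.7 and 22.3 FPKM in the CONT libraries and 180, 44.5 and 128 FPKM in the DM libraries (limma adjusted p = 0.0904, Benjamini-Hochberg). The groups did not overlap in any of these 4 genes, and macrophage and monocyte markers, a list that holds Ly6c2, were higher in the same libraries as given above. In the list as a whole 10 of 62 genes were entirely higher and 19 entirely lower in DM, against 13.8% and 13.2% of all genes tested. At an unadjusted p below 0.05 limma gave 8 higher and 9 lower, against 9.77% and 6.24%. The Ifitm3 relatives Ifitm1 and Ifitm2, named after their values were seen, averaged 2.47 ± 1.41 and 13.9 ± 7.18 FPKM in CONT and 13.3 ± 8.38 and 48.6 ± 19.5 FPKM in DM (SD, n = 3), both without overlap.

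The remaining marker lists gave 5 of 9 tested basophil and mast cell genes as called, 1 of 9 plasma cell and 1 of 6 dendritic cell genes, all higher, and none of 6 natural killer, 9 erythroid and 5 platelet genes (limma; 1, 5 and 4 at an unadjusted p below 0.05). Their sums in CONT and DM ran from 5.04 to 11.5 and 103 to 380 FPKM for basophils and mast cells, from 3.19 to 5.09 and 13.1 to 32.8 FPKM for dendritic cells, from 29.0 to 31.5 and 29.1 to 197 FPKM for natural killer cells, from 116 to 459 and 253 to 5197 FPKM for erythroid cells and from 13.8 to 27.0 and 14 to 16.7 FPKM for platelets. Most of the platelet sum was Itgb3, an integrin gene, in all libraries but DM replicate 1, where it was 5.40 of 16.2 FPKM. Itgb3 was at 12.1 to 23.8 FPKM in CONT and 5.40 to 12.4 FPKM in DM, while the other 4 tested platelet genes had fold changes above 0. The part of the cells of these lists in the values of the interferon-stimulated genes was not tested.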

How the data were processed

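Illumina libraries were made from total RNA extracted with Trizol, per the labels' protocols, 6 in all. The submitters' processing notes name cutadapt 1.9, FastQC and the build GRCm38. Not given in the sources used here are the aligner, the quantifying program and the handling of strand and of multiply matching reads. The authors deposited 1 table of 28945 genes with FPKM per library. The file name says counts, but the values are not whole, so no count test was used. Over 15403 single-transcript genes, 16.6% to 18.8% of low values times length fell within 0.02 of a whole step. The median over the steps tried was 3.54% to 3.61%, so the values carry traces of underlying counts, which were not recovered here. The authors' deposited p-value, q-value, fold ratio and its log2 come from a test that no source used here names. Their flag marks genes with p up to 0.05 and a ratio of at least 2 in either direction, as read from the flagged rows.

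The test was limma (version 3.58.1, R 4.3.3; trended and robust variance, two-sided, no covariate) applied to log2(FPKM + 1) of the 13106 genes whose mean reached 1 FPKM in either group, and p was adjusted by Benjamini-Hochberg over all of them. On data simulated for DM against CONT on 13106 genes, calls were made for 16.6% of genes shifted by 1 log2 unit, for 83.8% of genes shifted by 2 units and for 0.0651% of unshifted genes. Noise in the simulation was normal, of the same size in every library and independent between genes, which real libraries need not meet. Each gene's variance was averaged with the square of the median SD over genes. No trend on transcript length, such as that of CONT replicate 1, was simulated, so the call rates may differ in these data. Lengths and coordinates (1-based) are from GENCODE M21 for 99.7% of genes, and promoters from RefSeq GRCm38.p6. Values in every library were printed for members called, the 6 largest and 6 smallest fold changes, the 6 most abundant, Stat2, Irf9 and Irf7, and members whose groups do not overlap, with Isg15 added after its values were seen. Up to 4 genes of each other pathway list were taken by smallest p, and Ifnar1 and Ifnar2 were added. The members and lists were chosen with earlier results of these data known. Alternatives were other scalings, filters and pseudocounts, no trend, a replicate block, a looser threshold, leaving out each library and, chosen after seeing the data, removing the trend on length. Figures were drawn with matplotlib 3.10.9.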

Additional observations from a re-analysis of the deposited data

How the results depend on the processing

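The number of genes called over all genes was 199 and was 28 with no filter, 387 at an adjusted p below 0.1, 111 with the length trend removed and CONT replicate 1 left out, and 24 to 192 with 1 library left out. Ifitm3 was the member called; 0 members were called higher with median-of-ratios size factors or no filter, 2 at an adjusted p below 0.1 (Xaf1 added), and 0 to 1 with 1 library left out, while 0 were called lower under every alternative run. The median log2 fold change of the members was -0.55 with total scaling, which put the all-gene median at -0.32, and -0.42 to -0.06 with 1 library left out. Among receptor and signalling genes 1 was called at an adjusted p below 0.1 and 0 to 1 with 1 library left out. Among further interferon-stimulated genes 0 were called with median-of-ratios factors, total scaling, no filter, or the length trend removed and CONT replicate 1 left out, 2 with the replicate block, 4 at an adjusted p below 0.1 and 0 to 2 with 1 library left out.

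Replicate numbers are shared by CONT and DM, but deviations of same-numbered libraries correlated at -0.36, -0.38 and -0.20, so these libraries did not deviate together. This check cannot settle whether samples were collected or prepared in pairs, which the labels do not state. With the replicate block 204 genes were called over all genes, 185 higher, Ifitm3 was again the member called, and the median was -0.23.

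Of 663 pairs of a member and an alternative, the sign changed in 29, in 9 members, none of them called in either fit. With the length trend removed Ifih1 was at 0.0236 and Eif2ak2 at 0.0863; with CONT replicate 1 left out as well, Ifih1, Dhx58, Isg15, Oas1a, Oasl2, Eif2ak2 and Mx1 were at 0.20, 0.18, -0.084, 0.00828, 0.47, 0.30 and 0.14. Oasl2 was at 0.000204 with a pseudocount of 0.1. Rsad2 was at -0.0105, -0.22 and -0.0802 with upper quartile scaling, total scaling, and total scaling without abundant classes. With 1 library left out, ranges were -0.42 to 0.12 for Ifih1, -0.24 to 0.21 for Dhx58, -0.25 to 0.12 for Oas1a, -0.35 to 0.48 for Oasl2, -0.25 to 0.26 for Eif2ak2, -0.55 to 0.14 for Mx1, -0.19 to 0.27 for Rsad2 and -0.32 to 0.12 for Rtp4. The cause of these changes was not tested. Ifi44 has no value without CONT replicate 1, since both group means then lie under the filter of 1 FPKM, and absolute depth is unknown.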
